A study of Mus musculus with 18 samples.

Results

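The 10 genes described here were the glucose transporter Slc2a1 and 9 enzymes of glycolysis, Hk1, Hk2, Pfkl, Pfkp, Aldoa, Gapdh, Pgk1, Eno1 and Ldha. They were chosen by gene name, and all 10 were found among the 20207 genes of each of the 18 samples, with at least 1 read in every sample. The cells were NIH3T3 mouse fibroblasts that stably expressed DD-GFP, a destabilizing domain fused to superfolder GFP, which is kept folded by the ligand Shield-1 (S1). Transcript levels were measured by mRNA-seq in control cells at 0 min, after heat shock (HS, a shift from 37 °C to 42 °C) for 45 or 135 min, and after tunicamycin, which blocks N-glycosylation and causes misfolding in the endoplasmic reticulum (ER), for 45, 135 or 405 min. Tunicamycin was used at 5 µM by the study's legend, although a supplementary sheet writes the same figure in mM. Each of the 6 groups held 3 replicates, and all groups, controls included, carried DD-GFP and were kept in S1. All controls of these 18 samples were taken at 0 min. Effects of a treatment and of time in culture therefore cannot be told apart, against control or between times. Neither the labels nor the methods say that the replicates were separate cultures, so p-values measure the spread between these samples, which may be technical.

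Glycolysis converts glucose to pyruvate with a small net gain of ATP, and lactate dehydrogenase regenerates the NAD+ it consumes. Glucose enters fibroblasts mainly through GLUT1, the product of Slc2a1, is trapped in the cell by hexokinases, and is committed to the pathway by phosphofructokinase, a tetramer of mixed subunits. Many of these genes are known targets of the hypoxia-inducible factors (HIF) and of MYC, and a sugar phosphate from the upper pathway also feeds the hexosamine branch that supplies the sugar donor for N-glycosylation.

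Promoter sequences are shown for the transporter and for 3 enzymes whose levels the comparisons turn on, because HIF and MYC act through short DNA elements near the start site. RefSeq windows of 250 bases upstream of each annotated start (GRCm38.p6, a later build than the mm9 used for the reads) were found for all 10 genes, 16 windows in all. Capitals mark ACGTG, the core of the hypoxia response element, on either strand (CACGT on the strand shown). The windows lie at chr4:119108495-119108744 (+) for Slc2a1, chr6:82774455-82774704 (-) for Hk2, chr10:78009808-78010057 (-) for Pfkl and chr7:46845554-46845803 (+) for the upstream start of Ldha.
Slc2a1: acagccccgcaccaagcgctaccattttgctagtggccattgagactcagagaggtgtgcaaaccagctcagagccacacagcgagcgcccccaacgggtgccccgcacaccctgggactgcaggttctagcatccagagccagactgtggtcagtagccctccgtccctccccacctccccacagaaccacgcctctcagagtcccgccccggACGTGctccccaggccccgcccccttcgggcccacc
Hk2: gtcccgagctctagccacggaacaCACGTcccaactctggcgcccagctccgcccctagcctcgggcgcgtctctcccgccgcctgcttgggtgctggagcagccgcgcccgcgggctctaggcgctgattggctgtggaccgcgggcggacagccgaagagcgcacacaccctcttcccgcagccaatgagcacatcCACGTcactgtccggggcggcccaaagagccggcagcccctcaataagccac
Pfkl: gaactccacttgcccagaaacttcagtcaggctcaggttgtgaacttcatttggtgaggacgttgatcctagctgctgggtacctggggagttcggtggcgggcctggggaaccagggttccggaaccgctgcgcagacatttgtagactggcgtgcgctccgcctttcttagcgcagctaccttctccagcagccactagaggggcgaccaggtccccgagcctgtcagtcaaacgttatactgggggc
Ldha: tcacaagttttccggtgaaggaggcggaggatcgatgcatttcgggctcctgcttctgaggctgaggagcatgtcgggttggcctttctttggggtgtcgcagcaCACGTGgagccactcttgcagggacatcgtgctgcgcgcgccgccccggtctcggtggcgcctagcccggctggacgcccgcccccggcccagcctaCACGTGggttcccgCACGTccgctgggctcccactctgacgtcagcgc

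The Ldha window held 5 matches to ACGTG, and 4 of them formed a pair of palindromic E-boxes, CACGTG, at 145 and 48 bases before the start. Slc2a1 held 1 match, 36 bases before the start, and Hk2 held 2, at 226 and 52 bases. Matches were also found in Pgk1 and Aldoa, so that 5 of the 10 genes had the core in at least 1 window. Counted by window, 6 of their 16 windows held it, against 16.6% of the 32851 promoter windows in the table, and 1 held CACGTG, against 6.02%. The Aldoa windows that held ACGTG overlap and share 1 site, which is thus counted more than once. The paired heat shock element units GAANNTTC were found in 1 of the 16 windows, that of Pfkl (6.69% of all windows). CCACG, the end of the ER stress response element, was in 6 of the 16 (28.3%), and TGATGNAA, the CEBP-ATF response element, in 0 (3.45%). CCACG and ACGTG overlap where they share CACG, and both strands were searched for each motif. The other Ldha window and both Hk1 windows held no ACGTG. A match describes the letters only.

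Total reads per sample ranged from 33415592 to 66478268, and the 10 genes together took between 0.369% and 0.649% of them. At these depths 3 reads correspond to at most 0.0898 CPM (reads scaled to a common library size), far under every value given here. All 8 fibroblast markers averaged at least 50.7 RPKM in control cells, and 9 of 10 markers of other cell types were at or under 0.17 RPKM, the exception being Cd68 at 5.87 RPKM. HS for 135 min raised Hsph1, a heat-shock chaperone, by 3.33 (log2) and Hspa1b by 7.24, and tunicamycin for 405 min raised the ER stress genes Hspa5 by 3.73 and Ddit3 by 5.22. Bulk RNA cannot tell less RNA per cell from fewer cells.

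Libraries of the same group differed along 1 main axis, the first principal component of log2 CPM after subtraction of the group means, which held 68.1% of the spread within groups and whose gene loadings followed transcript GC content (Spearman's rho of 0.70, taken over genes rather than samples). HS 45 min replicate 3 scored -77.6 against 29.4 and 48.2 for its group, and HS 135 min ran from -55.4 to 69.6. In each of 5 groups whose scores spanned over 30, the farthest library was also left out: control replicate 1, HS 45 min replicate 3, HS 135 min replicate 2, tunicamycin 45 min replicate 3 and tunicamycin 135 min replicate 1. Several of the 10 genes moved along this axis. Within groups, Hk1 (r = 0.94), Pfkl (0.94), Aldoa (0.87) and Pfkp (0.84) rose with the score and Pgk1 (-0.81) and Eno1 (-0.86) fell with it, all described over the same 18 libraries that define the axis. Ldha (0.44), Gapdh (0.42) and Hk2 (0.49) followed it less closely.

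**Figure D1:**
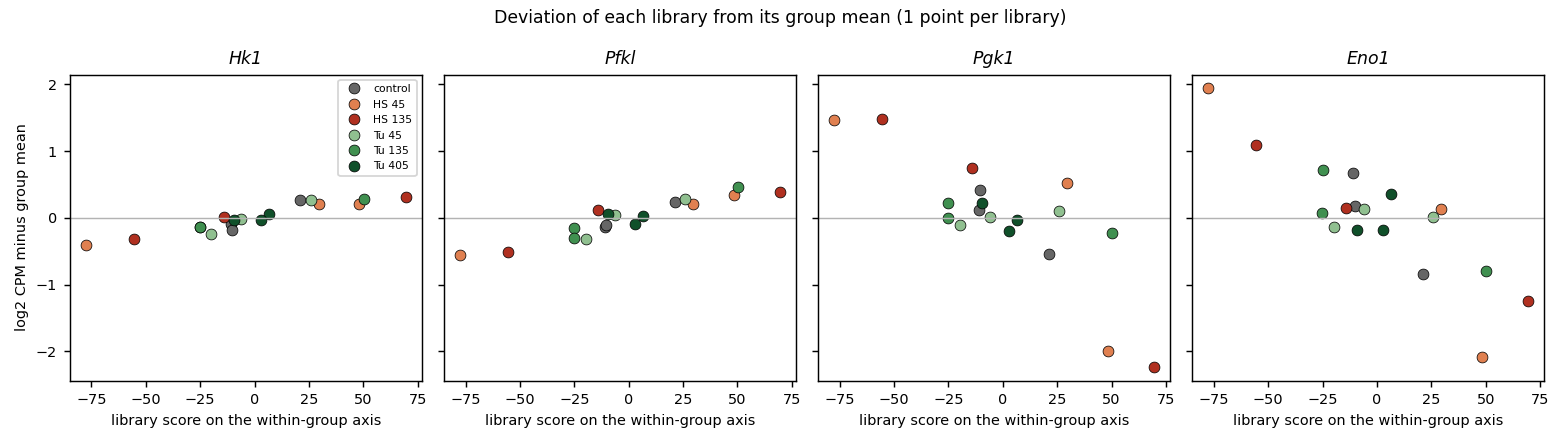
Log2 CPM minus the group mean (vertical axis) against the library's score on the within-group axis (horizontal axis, no unit) for Hk1, Pfkl, Pgk1 and Eno1, with 1 point per library coloured by group. Hk1 and Pfkl rise with the score (r = 0.94 for each), while Pgk1 and Eno1 fall (r = -0.81 and -0.86) and spread most in the HS libraries.

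Levels in control cells were set side by side by the deposited RPKM, which divides by transcript length. Aldoa, the aldolase that splits fructose bisphosphate, was the most abundant at 766 ± 43.6 RPKM (SD, n = 3), followed by Ldha at 721 ± 73.3 and Gapdh at 699 ± 324, whose ranges overlapped. Pgk1, phosphoglycerate kinase, had 329 ± 114 RPKM and overlapped Gapdh but not the next gene, the enolase gene Eno1, at 96.3 ± 47.2. Slc2a1 (68.2 ± 8.72) overlapped Eno1. Below it, without overlap between neighbours, came Pfkl at 45.2 ± 4.82, Hk1 at 28.4 ± 3.77, Hk2 at 10.8 ± 0.901 and Pfkp at 6.79 ± 1.52 RPKM. By their means, the genes that act at or before the committed step were all below those of the lower pathway.

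Some of these genes have near-identical copies elsewhere in the genome, and reads from such genes may be split or lost in counting. Stretches of at least 100 bases with at least 95% identity were found at 48 other mm9 loci for Gapdh, covering 88.6% of its transcript. Pgk1 had 4 such loci (95.7% of the transcript), Eno1 had 4 (85.6%) and Ldha had 3 (19.2%), and the other 6 genes had 0. Values for Gapdh, Pgk1 and Eno1 are uncertain for this reason.

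**Figure D2:**
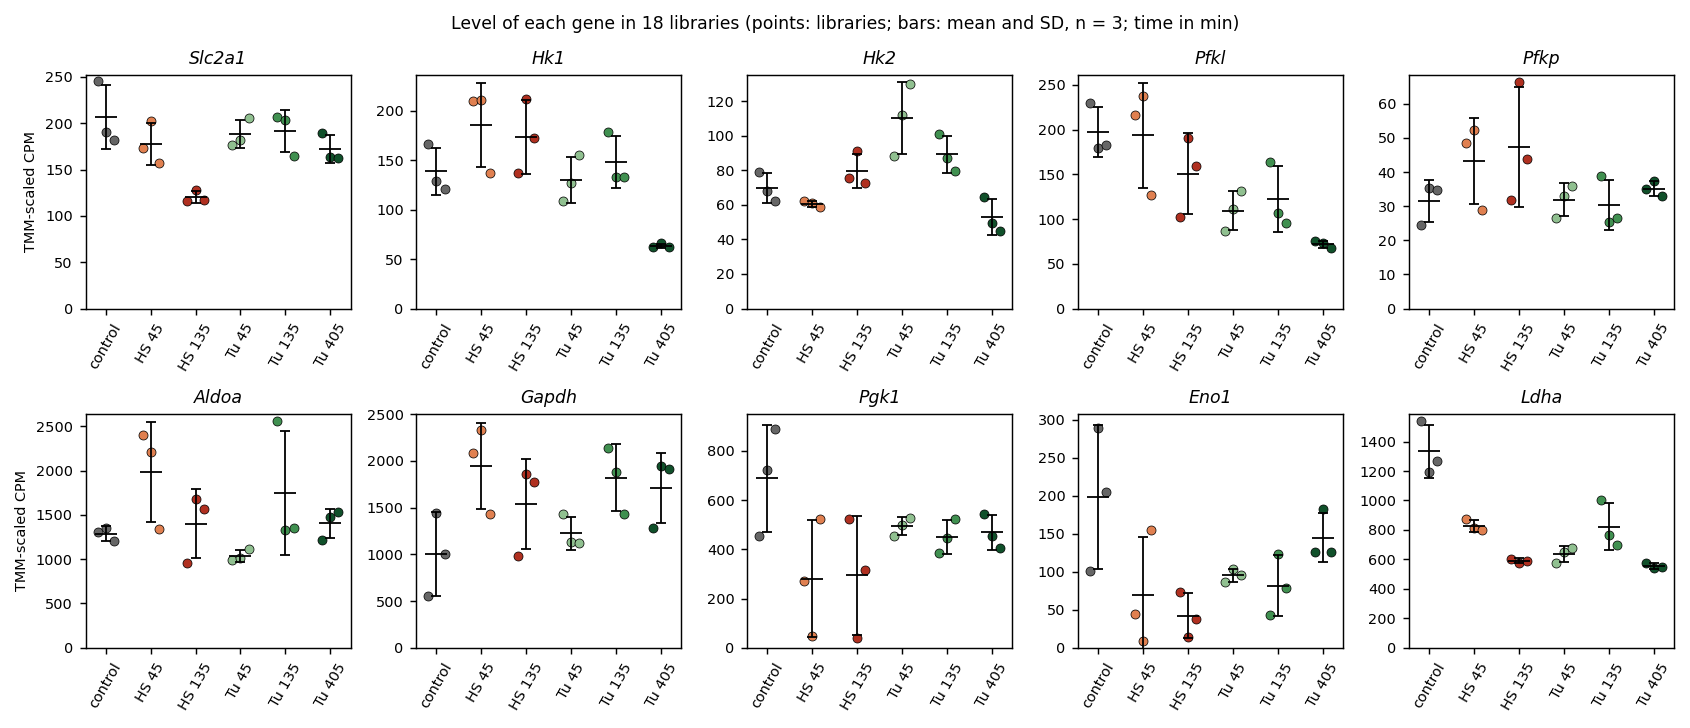
TMM-scaled CPM (vertical axis, linear from 0) of each gene in the control, HS and tunicamycin groups (horizontal axis, time in min), with 1 point per library and bars for the mean and SD (n = 3). Ldha lies below its control range in every stressed library, Hk1 and Pfkl are lowest and tightest at 405 min of tunicamycin, and Pgk1 and Eno1 scatter widely under HS.

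Changes were tested with edgeR over the 12731 genes that had a read in every sample, and a gene is said to have changed where its Benjamini-Hochberg adjusted p was under 0.05. Levels across groups are TMM-scaled CPM, replicates 1 to 3 in order. No member was called higher in any of the 10 comparisons by this test, and in several of them almost no gene was. Of all 12731 genes, it called 0 higher at 45 min of HS and 605 at 135 min. Tunicamycin gave 510 at 45 min, 16 at 135 min and 2965 at 405 min. HS against tunicamycin gave 8 at 45 min and 166 at 135 min. Between times, 0 were called higher for HS, 15 for tunicamycin 135 against 45 min and 2720 for 405 against 135 min.

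Slc2a1 (chromosome 4, 118781350 to 118809934 in mm9, as the files give it) is the basal glucose transporter of fibroblasts. Its levels were 246, 191 and 182 CPM in control cells, 173, 202 and 157 at 45 min of HS, and 116, 128 and 117 at 135 min of HS. The 3 libraries at 135 min of HS were the lowest of all 18 and did not overlap the control or HS 45 min libraries. The change against control was -0.78 ± 0.198 (log2, SE), a 1.72-fold lower level, with an adjusted p of 0.0529 that missed the threshold by a small margin. The same difference passed in 7 of 16 alternative fits, among them DESeq2 (adjusted p = 0.021) and 1 fit of all 6 groups (0.00185). It did not pass in the other 9, among them the replicate block (0.182), the fits with another filter or with DESeq2 size factors and 5 of 6 that left out a replicate (up to 0.225). Under tunicamycin Slc2a1 stayed between 163 and 207 CPM at all 3 times. Those libraries overlapped the control range, and the changes lay between -0.24 and -0.09 with SEs of 0.149 to 0.187. Against tunicamycin at 135 min, HS at 135 min was lower by 1.62-fold without overlap (log2 -0.70 ± 0.169, adjusted p = 0.0836).

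Among genes averaging at least 10 CPM (8279), the levels most like those of Slc2a1 over the 18 samples were Fam40a (Pearson's r = 0.928 of log2 CPM), Scamp5 (0.918) and Fancf (0.901).

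Under tunicamycin Hk1 was lower than in control cells at 405 min, and Hk2 was above its control range at 45 and 135 min. Hk1 (chromosome 10, 61731603 to 61803169) encodes the widely expressed hexokinase bound to mitochondria, and Hk2 (chromosome 6, 82675021 to 82724448) the inducible form. Hk1 had 166, 129 and 121 CPM in control cells, 109, 127 and 155 at 45 min of tunicamycin and 179, 133 and 133 at 135 min. At 405 min it had 62.2, 65.8 and 62.0 CPM. The last 3 libraries lay below every other library, and the change against control was -1.11 ± 0.148 (log2), 2.16-fold lower with an adjusted p of 0.00064. Under HS Hk1 had 210, 211 and 137 CPM at 45 min and 137, 212 and 173 at 135 min. Both groups overlapped the control range, and the third library at 45 min and the first at 135 min, the lowest of their groups, also had the lowest axis scores.

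Hk2 had 79.0, 67.8 and 62.5 CPM in control cells and 88.3, 112 and 130 at 45 min of tunicamycin. It then had 101, 87.0 and 79.6 CPM at 135 min and 64.5, 49.3 and 44.9 at 405 min. The 45 and 135 min libraries all lay above the control libraries, at 135 min by a margin of under 1 CPM, whereas the 405 min libraries overlapped them. The difference at 45 min was 0.67 ± 0.166 (log2), 1.59-fold higher, and missed the threshold (adjusted p = 0.0563). It passed in 6 of 16 alternative fits, among them DESeq2 (0.0155) and the GC-content offset (0.0273), and not in the other 10, among them the replicate block (0.204) and 5 of 6 that left out a replicate (up to 0.226). At 405 min the difference against control was -0.38 ± 0.168 (adjusted p = 0.0946), which passed in 3 of 15 alternative fits, with the lowest adjusted p of 0.0173 and the highest of 0.294. From 135 to 405 min Hk2 fell by 0.78 ± 0.173 (adjusted p = 0.00887). Under HS the levels were 62.0, 61.2 and 58.7 CPM at 45 min and 75.8, 91.0 and 72.5 at 135 min. The 45 min libraries lay just under the control range and the 135 min libraries overlapped it. The genes most like Hk2 over the 18 samples were Vdr (r = 0.845), Gpatch2 (0.844) and Pars2 (0.835).

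By RPKM, Hk2 made up 27.6 ± 1.02% of the hexokinase 1 and 2 transcripts in control cells and 38.8 ± 1.01% at 45 min of tunicamycin, with ranges of 26.4 to 28.3% and 37.9 to 39.9%. The share was 31.3 ± 1.66% at 135 min and 38.4 ± 4.75% at 405 min, and each tunicamycin group lay above the control range. HS gave 20.2 ± 3.67% at 45 min, below the control range, and 26.0 ± 2.98% at 135 min, overlapping it. The share was high at 45 min of tunicamycin while Hk2 was above its control range, and at 405 min it was high while Hk1 was below its own. An exact permutation test of 3 against 3 libraries cannot give a two-sided p under 0.1, so these shares are given as a description.

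**Figure D3:**
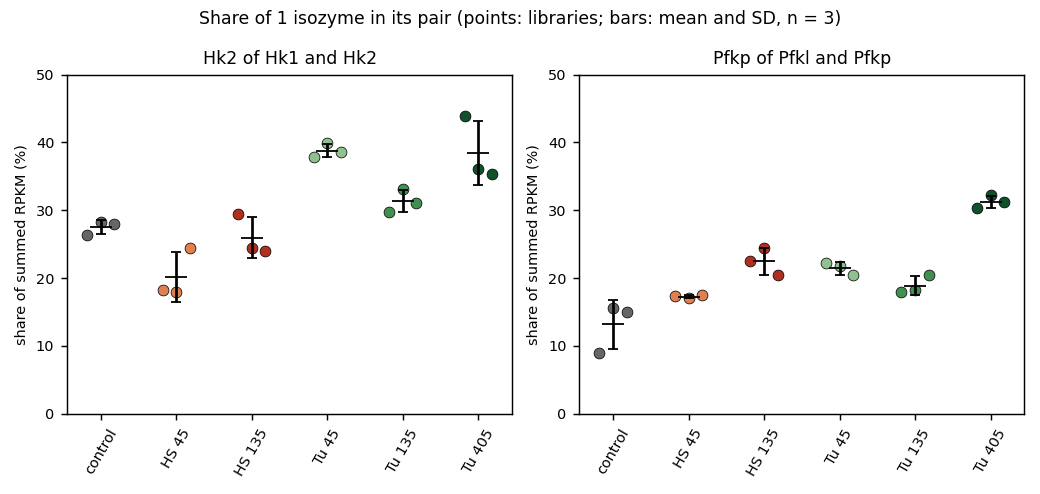
Share of the summed RPKM (%, vertical axis) held by Hk2 of Hk1 and Hk2 (left) and by Pfkp of Pfkl and Pfkp (right) in each group (horizontal axis, time in min), with 1 point per library and bars for the mean and SD (n = 3). Both shares are above the control range in each tunicamycin group, and the Pfkp share reaches 31.3% at 405 min.

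Pfkl (chromosome 10, 77449694 to 77472541), the liver-type subunit of phosphofructokinase, was lower under tunicamycin. It had 230, 179 and 183 CPM in control cells and 86.7, 111 and 131 at 45 min of tunicamycin. At 135 min the levels were 164, 107 and 96.1 CPM and at 405 min 75.0, 73.4 and 67.7. All 9 tunicamycin libraries lay below the lowest control library. Pfkl fell by 0.84 ± 0.178 (log2) at 45 min (1.79-fold, adjusted p = 0.0387) and by 1.43 ± 0.140 at 405 min (2.70-fold, adjusted p = 0.00015). At 135 min the difference of -0.68 ± 0.230 was not past the threshold (adjusted p = 0.192). HS gave 216, 238 and 127 CPM at 45 min and 102, 191 and 159 at 135 min. Each HS group overlapped the control range, and within each the lowest library was the one with the lowest axis score. With a GC-content offset, the HS 135 min difference was -0.71 (adjusted p = 0.0149) in place of -0.39 ± 0.265.

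The call for Pfkl at 45 min of tunicamycin rested on most of its libraries. It was lost without control replicate 2 (adjusted p = 0.0938), control replicate 3 (0.11) or tunicamycin replicate 1 (0.0912), 2 (0.175) or 3 (0.0626), and also in the fit of all 6 groups (0.0911) and with the replicate block (0.17). The call at 405 min was kept in all 6 fits that left out a replicate.

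Pfkp (chromosome 13, 6579120 to 6647970), the platelet-type subunit, was not called in any comparison. Its levels were 24.5, 35.4 and 34.8 CPM in control cells and 35.1, 37.3 and 32.9 at 405 min of tunicamycin. These overlapped, with a change of 0.18 ± 0.161 (adjusted p = 0.40). In HS cells it had 48.5, 52.4 and 28.9 CPM at 45 min and 31.7, 66.4 and 43.8 at 135 min, both overlapping the control range. Pfkp made up 13.2 ± 3.63% of the RPKM of the pair in control cells (9.03 to 15.6%), 21.5 ± 0.945% at 45 min of tunicamycin, 18.9 ± 1.39% at 135 min and 31.3 ± 0.902% at 405 min (30.4 to 32.2%). HS gave 17.3 ± 0.252% and 22.5 ± 2.0%. All 5 stressed groups lay above the control range. The share leaves out the muscle-type subunit Pfkm, which had 73.4 ± 3.84 CPM in control cells, so it does not describe all phosphofructokinase transcripts.

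Ldha (chromosome 7, 54101220 to 54110996), which encodes the lactate dehydrogenase subunit that favours lactate formation, was the gene of the 10 that was called lower most often. Its levels were 1538, 1195 and 1268 CPM in control cells, 871, 812 and 797 at 45 min of HS and 606, 575 and 591 at 135 min of HS. Tunicamycin gave 577, 653 and 679 CPM at 45 min, 1004, 763 and 700 at 135 min and 576, 541 and 551 at 405 min. Every one of the 15 stressed libraries was below the lowest control library. Ldha fell by 1.18 ± 0.208 (log2) at 135 min of HS (2.26-fold, adjusted p = 0.022). It fell by 1.05 ± 0.150 at 45 min of tunicamycin (2.08-fold, adjusted p = 0.0117) and by 1.24 ± 0.146 at 405 min (2.37-fold, adjusted p = 0.00036). The differences at 45 min of HS (-0.69 ± 0.214, adjusted p = 0.227) and at 135 min of tunicamycin (-0.68 ± 0.205, adjusted p = 0.164) were not past the threshold. All of these share the same 3 control libraries.

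Under tunicamycin Ldha did not fall steadily. The 135 min libraries all lay above the 45 min libraries, with a difference of 0.37 ± 0.166 that was not past the threshold (adjusted p = 0.333), and the 405 min libraries lay below those at 135 min. That last step was a fall of 0.59 ± 0.167 (adjusted p = 0.0237).

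The Ldha calls at early times depended on single libraries. At 135 min of HS the call was lost without control replicate 2 (adjusted p = 0.111), control replicate 3 (0.123) or HS replicate 3 (0.142). For tunicamycin at 45 min it was lost without control replicate 3 (0.0544) or tunicamycin replicate 1 (0.0514) or 2 (0.0877). The direction and the size hardly moved, with log2 values of -1.25 to -1.18 and -1.09 to -0.99 in those fits. The call at 405 min was kept in all 6 such fits.

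Aldoa (chromosome 7, 133938750 to 133942697) was not called in any comparison. It had 1311, 1356 and 1202 CPM in control cells and 1222, 1471 and 1531 at 405 min of tunicamycin. The groups overlapped, with a change of 0.15 ± 0.145. Its 991, 1009 and 1116 CPM at 45 min of tunicamycin lay below the control range, by 0.30 ± 0.127 on the log2 scale (adjusted p = 0.188). The highest values, 2402 and 2212 CPM in HS 45 min replicates 1 and 2 and 2560 in tunicamycin 135 min replicate 1, came from libraries with axis scores of 29.4, 48.2 and 50.1.

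Gapdh (chromosome 6, 125111870 to 125115601), the dehydrogenase that the study used to normalise its RT-qPCR, varied within the control group. Control libraries had 553, 1447 and 1003 CPM. HS gave 2083, 2326 and 1428 CPM at 45 min and 980, 1862 and 1774 at 135 min, whereas 45 min of tunicamycin gave 1431, 1133 and 1119, 135 min gave 2142, 1881 and 1434, and 405 min gave 1282, 1942 and 1915. Each of these groups overlapped the control range. The largest fitted difference was 0.96 ± 0.383 at 45 min of HS, 1.94-fold higher with an adjusted p of 0.243, and at 405 min of tunicamycin it was 0.80 ± 0.328 (adjusted p = 0.0758, and 0.0164 to 0.198 over 15 alternative fits, of which 4 passed). Over all 18 samples the SD of log2 CPM was 0.52 for Gapdh, at the 70.2 percentile of the genes tested. Among 10 other genes often used as RT-qPCR references, Sdha (0.35), Gusb (0.38) and Rplp0 (0.44) were examples of a lower SD, and Ppia (1.59) and B2m (1.83) had the highest. Of those 10, tunicamycin for 405 min raised 2 and lowered 4 (23.3% and 23.5% of all genes). The 4 were Actb (-1.58 ± 0.315, adjusted p = 0.00434), Ywhaz (-1.29 ± 0.127, 0.000154), Gusb (-1.06 ± 0.120, 0.000294) and Sdha (-0.65 ± 0.129, 0.00433). Gusb and Sdha were thus called lower although their SD was lower than that of Gapdh.

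Pgk1 (chromosome X, 103382463 to 103399038) and Eno1 (chromosome 4, 149611306 to 149622982) spread more than the other 8 genes. Pgk1 had 455, 722 and 889 CPM in control cells, 271, 47.0 and 522 at 45 min of HS and 524, 40.2 and 318 at 135 min of HS. Eno1 had 101, 289 and 205 CPM in control cells, 44.5, 9.56 and 155 at 45 min of HS and 73.7, 14.6 and 38.2 at 135 min of HS. In each HS group the library lowest in both genes was replicate 2, which had the highest axis score of its group. The SDs of log2 CPM over 18 samples, 1.17 and 1.23, were at the 98.4 and 98.7 percentiles of the genes tested. The 2 genes moved together over the 18 samples (r = 0.90, and 0.88 within groups), and these samples share the axis described above.

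All 3 libraries at 135 min of HS were below the control range for Eno1, a difference of -2.23 ± 0.60 (log2, adjusted p = 0.0596). This passed in 6 of 16 alternative fits, with adjusted p values from 0.00131 (DESeq2) to 0.216 (without HS replicate 3). For Pgk1 at 135 min of HS the difference was -1.23 ± 0.743 (adjusted p = 0.296). Under tunicamycin Pgk1 lay between 384 and 544 CPM in all 9 libraries, and the differences against control of -0.59 to -0.47 were not past the threshold. Eno1 levels after 45 min of tunicamycin were 86.4, 104 and 95.5 CPM, after 135 min 43.2, 123 and 78.8, and after 405 min 126, 182 and 126, each group overlapping the control range. Without control replicate 1, whose Pgk1 level of 455 CPM was the lowest of its group, Pgk1 was called lower at 45 min (-0.70, adjusted p = 0.0168) and at 405 min (-0.75, adjusted p = 0.00112) of tunicamycin. Eno1 was then also called lower at 45 min (-1.37, adjusted p = 0.00643) and at 405 min (-0.74, adjusted p = 0.00661).

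Counted by comparison, the 10 genes were read against all genes tested. After 45 min of HS 0 of 10 were called by edgeR (background 0.0%), and DESeq2 called 0. An unadjusted edgeR p under 0.05 was found for 2, Ldha and Gapdh, and for 2480 of all 12731 genes. Hk2 and Ldha were below the control range without overlap (12.8% of all genes). The median log2 change was -0.12, beside -0.03 over all genes. That count rested on 1 library: without HS 45 min replicate 3, 7 of 10 were called, when 45.4% of all genes were. In that fit Hk1 (0.60), Pfkp (0.68), Aldoa (0.84) and Gapdh (1.14) were higher and Pgk1 (-2.12), Eno1 (-2.87) and Ldha (-0.66) lower. With control replicate 1 left out as well, again 7 were called, when 62.0% of all genes were.

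At 135 min of HS 1 of 10 was called, Ldha, where 7.39% of all genes were called and 2.64% were called lower. Slc2a1, Eno1 and Ldha were below the control range without overlap (19.0% of all genes). The median log2 change was -0.14, beside -0.02. Without control replicate 2 (0.118% of all genes called), control replicate 3 (0.0864%) or HS 135 min replicate 3 (0.0864%), 0 were called. Without HS 135 min replicate 1, 3 were called (19.4% of all genes), without replicate 2 there were 2 (9.71%), and without control replicate 1 and HS 135 min replicate 2 together there were 4 (24.8%).

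Tunicamycin for 45 min gave 2 calls of 10, both lower, Pfkl and Ldha, where 6.17% of all genes were called and 2.17% were called lower. Pfkl, Aldoa and Ldha lay below the control range (16.0% of all genes) and Hk2 above it (17.2%). The median log2 change was -0.21, beside 0.00. Without control replicate 1, 5 were called (19.6% of all genes), and without it and tunicamycin 45 min replicate 3 there were 6 (36.1%). Fits without control replicate 3 (0.754% of all genes), tunicamycin replicate 1 (1.67%) or tunicamycin replicate 2 (0.456%) called 0, and those without control replicate 2 (0.801%) or tunicamycin replicate 3 (2.07%) called 1.

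At 135 min of tunicamycin 0 of 10 were called by edgeR (background 0.134%), and DESeq2 called 0. An unadjusted edgeR p under 0.05 was found for 4, and for 2369 of all 12731 genes. Pfkl and Ldha lay below the control range (13.6%) and Hk2 above it (13.7%), and the median was -0.07, beside 0.00. Without control replicate 1 and tunicamycin 135 min replicate 1, 6 were called, when 44.4% of all genes were.

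At 405 min of tunicamycin 3 of 10 were called, all lower, Hk1, Pfkl and Ldha, where 46.8% of all genes were called and 23.5% were called lower. The same 3 genes were below the control range without overlap (29.5% of all genes), and 0 were above it. The median log2 change was -0.40, beside -0.01 over all genes. Without control replicate 1, 5 were called (62.0% of all genes).

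**Figure D4:**
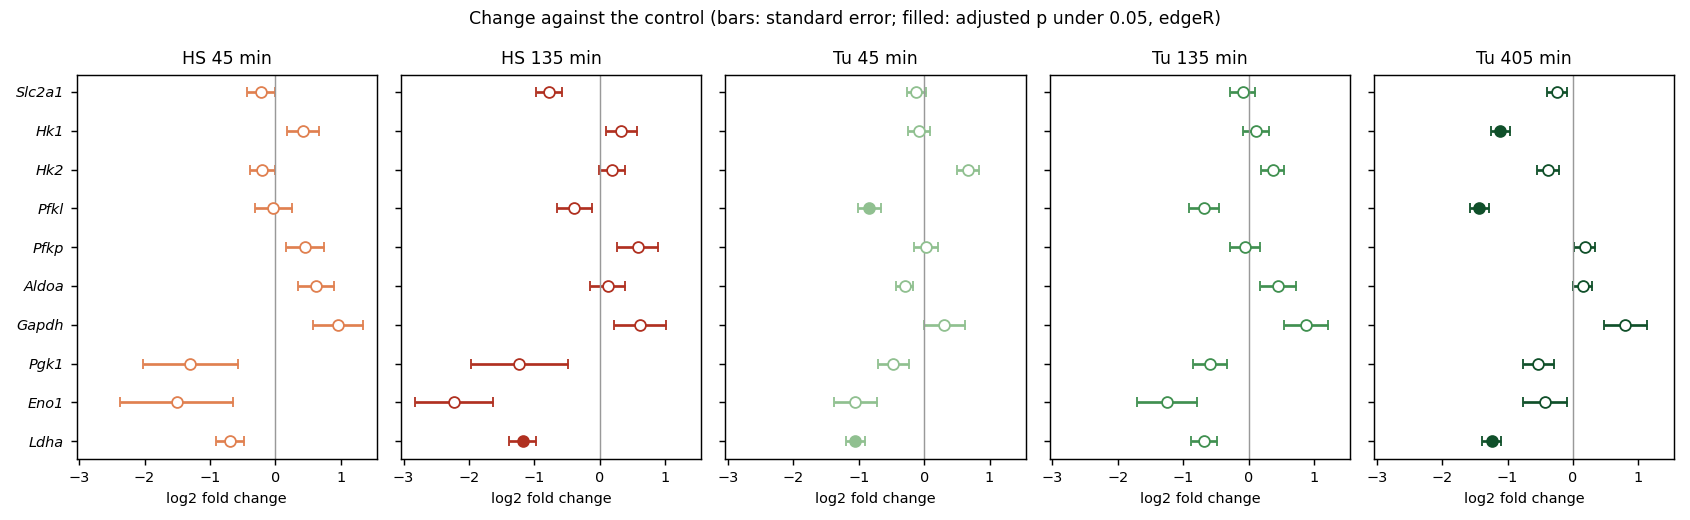
Log2 fold change against control (horizontal axis) of each gene (vertical axis) at each time of HS and tunicamycin, with bars for the SE (3 against 3 libraries) and filled points where the edgeR adjusted p was under 0.05. Filled points are Ldha at 135 min of HS, Pfkl and Ldha at 45 min of tunicamycin, and Hk1, Pfkl and Ldha at 405 min, all to the left of 0.

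The stresses were also compared at matched times. At 45 min 0 of 10 genes differed between HS and tunicamycin by edgeR (background 0.204%), and 2 by DESeq2. An unadjusted edgeR p under 0.05 was found for 5, and for 3061 of all 12731 genes. Hk2 was lower in every HS library (58.7 to 62.0 CPM) than in any tunicamycin library (88.3 to 130), a difference of -0.86 ± 0.172 (adjusted p = 0.10, and 0.00526 to 0.465 over 16 alternative fits, of which 6 passed), and 15.7% of all genes were separated in that direction. Aldoa and Ldha were higher in HS without overlap (13.1% of all genes). Without HS 45 min replicate 3, 9 of 10 were called, when 55.7% of all genes were, and Slc2a1 was the gene not called. At 135 min 0 of 10 differed by edgeR (background 2.12%), and 1 by DESeq2. An unadjusted edgeR p under 0.05 was found for 2, and for 2543 of all 12731 genes. Slc2a1 and Ldha were lower in HS without overlap (13.1% of all genes).

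Between times, HS at 135 min against 45 min gave 0 of 10 calls by edgeR (background 0.0%) and 0 by DESeq2. An unadjusted edgeR p under 0.05 was found for 2, and for 1481 of all 12731 genes. Slc2a1 and Ldha were lower at 135 min (8.32% of all genes) and Hk2 higher (9.43%), without overlap. Tunicamycin at 135 min against 45 min gave 0 calls by edgeR (background 0.291%) and 0 by DESeq2. An unadjusted edgeR p under 0.05 was found for 2, and for 2010 of all 12731 genes. Aldoa, Gapdh and Ldha lay higher at 135 min without overlap (11.3% of all genes). From 135 to 405 min of tunicamycin 4 of 10 were called, Hk1, Hk2, Pfkl and Ldha, all lower, where 43.7% of all genes were called and 22.4% were called lower. Hk1 fell by 1.25 ± 0.155 (2.38-fold, adjusted p = 0.000712) and Pfkl by 0.79 ± 0.209 (1.73-fold, adjusted p = 0.0182). These 4 genes lay lower at 405 min without overlap (26.9% of all genes), and Eno1 higher (29.8%; 0.80 ± 0.352, adjusted p = 0.0995, with 2 of 15 alternative fits passing, at 0.0239 and 0.0403). Without tunicamycin 405 min replicate 1, 2 or 3 the count was 2, as Pfkl (adjusted p = 0.058, 0.0613 and 0.0738) and Ldha (0.0691, 0.0947 and 0.0864) were lost, while 27.9 to 34.4% of all genes were called.

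The rest of the pathway was taken from lists written for this tissue with earlier results of these data known. Of 20 other glycolysis enzymes and isozymes, 13 had a read in every sample. At 405 min of tunicamycin 1 of the 13 rose and 4 fell, where 23.3% of all genes rose and 23.5% fell, and the median was -0.31. The muscle pyruvate kinase gene (Pkm2 in the files) fell by 0.81 ± 0.135 (adjusted p = 0.00182), the muscle-type phosphofructokinase Pfkm by 0.73 ± 0.119 (0.00163), the mutase Pgam1 by 0.70 ± 0.120 (0.0021) and the triose isomerase Tpi1 by 0.64 ± 0.133 (0.00529). Adpgk, an ADP-dependent glucokinase, rose by 0.72 ± 0.183 (0.0128). At 45 min of tunicamycin 2 of the 13 fell (2.17% of all genes), Pgam1 (-0.78 ± 0.120, adjusted p = 0.0144) and Tpi1 (-0.66 ± 0.128, 0.0292), and at 135 min of HS 1 fell (2.64% of all genes), Bpgm (-0.95 ± 0.228, 0.046).

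Of 7 tested sugar and lactate transporters other than Slc2a1, 1 rose at 405 min of tunicamycin (23.3% of all genes). It was the monocarboxylate transporter Slc16a1 (0.79 ± 0.157, adjusted p = 0.00414). At 135 min of HS 1 of the 7 fell (2.64% of all genes), Slc2a10 (-1.50 ± 0.278, 0.0242). Of 16 regulators of glycolysis and of pyruvate entry into mitochondria, 8 rose and 4 fell at 405 min of tunicamycin, where 46.8% of all genes were called, and the median was 0.40. The largest rises were those of Pdhb, a subunit of pyruvate dehydrogenase (1.16 ± 0.190, adjusted p = 0.00173), Tigar, a fructose bisphosphatase (9630033F20Rik in the files, 1.10 ± 0.208, 0.00343), and the mitochondrial pyruvate carrier gene listed as Brp44 (0.88 ± 0.197, 0.00723). Those that fell furthest were the pyruvate dehydrogenase phosphatase gene (Ppm2c in the files, -1.68 ± 0.210, adjusted p = 0.000469) and Pfkfb4 and Pfkfb1, which set the level of the phosphofructokinase activator (-1.52 ± 0.143, 0.000127, and -1.17 ± 0.202, 0.00223). In the pentose phosphate pathway, 2 of 7 rose (23.3% of all genes) and 2 fell (23.5%). Rpia rose by 0.88 ± 0.123 (0.000837) and Taldo1 by 0.45 ± 0.111 (0.0114), against falls of Pgd by 0.66 ± 0.116 (0.00246) and G6pdx by 0.64 ± 0.159 (0.0115).

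The hexosamine pathway, which branches from glycolysis below hexokinase, was called in 1 direction at 405 min of tunicamycin. All 7 of its genes rose then (median 0.93, where 23.3% of all genes were called higher). At 45 and 135 min of tunicamycin 0 of 7 were called by edgeR (6.17% and 0.134% of all genes). An unadjusted edgeR p under 0.05 was found for 2 and 0 of them, and for 3260 and 2369 of all 12731 genes. Gfpt1, the rate-limiting amidotransferase, had 91.1 ± 11.8 CPM (SD, n = 3) in control cells, 86.0 ± 23.2 at 135 min and 216 ± 9.67 at 405 min, a rise of 1.27 ± 0.131 (log2, adjusted p = 0.000196). Gfpt2 rose by 1.37 ± 0.166 (0.000403), and the acetyltransferase Gnpnat1 by 2.13 ± 0.373 (0.00238). The difference between this list and the glycolysis genes was not tested.

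**Figure D5:**
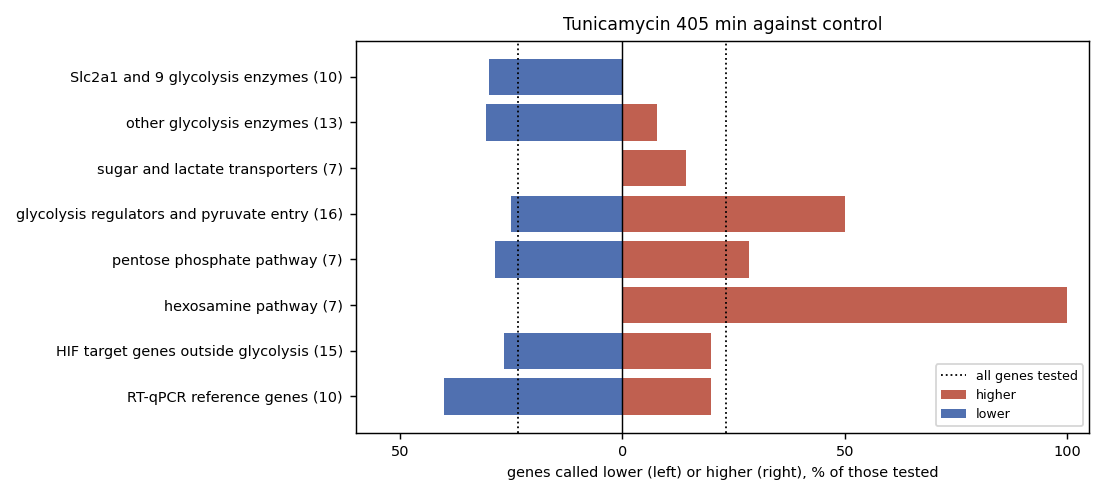
Genes called lower (left of 0) and higher (right of 0) at 405 min of tunicamycin, as % of the genes tested in each list (number in parentheses), with dotted lines at the 23.5% and 23.3% of all genes called lower and higher. The 10 glycolysis genes reach 30% lower and 0 higher, and the 7 hexosamine genes reach 100% higher.

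Other known HIF targets, outside glycolysis, did not move as 1 group. Of 15 tested, 5 rose and 1 fell at 135 min of HS (4.75% and 2.64% of all genes), with Bhlhe40 at 1.96 ± 0.222 (adjusted p = 0.0106), Vegfa at 1.77 ± 0.213 (0.0122) and Ndrg1 at 1.70 ± 0.206 (0.0122). Tunicamycin for 45 min raised 4, among them Vegfa (1.83 ± 0.134, 0.00122) and Ndrg1 (1.70 ± 0.129, 0.00122), and lowered 2, where 4.01% of all genes were called higher and 2.17% lower. At 135 min 1 rose, Vegfa (1.39 ± 0.184, 0.0457), where 0.134% of all genes were called. At 405 min 3 rose, Ndrg1 (2.98 ± 0.135, 8.46e-06), Vegfa (2.13 ± 0.112, 1.19e-05) and Ddit4 (1.25 ± 0.140, 0.000282), and 4 fell, where 23.3% and 23.5% of all genes did. At 135 min of HS and at 45 and 405 min of tunicamycin, Vegfa and Ndrg1 were called higher and Ldha lower, in comparisons that share the 3 control libraries. Egln3, from the same list of HIF targets, was called lower with Ldha each time. Its changes were -1.12 ± 0.263 (adjusted p = 0.044), -1.01 ± 0.171 (0.0203) and -1.16 ± 0.167 (0.000929).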

How the data were processed

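Poly(A) RNA of 18 samples was sequenced on an Illumina HiSeq 2000. For library preparation the study's methods name a modified Illumina protocol and also a NuGEN Encore kit run on a Mondrian system. Neither the methods nor the labels say which samples were prepared in which way. The authors aligned reads to mm9 and counted them against RefSeq on the DNAnexus platform, whose counter and version are not given in the sources used here. The authors deposited for each gene an estimated count of reads, not always whole, and an RPKM. Strand use in counting and the handling of reads with several matches are not given either.

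Counts were rounded. Genes with at least 1 read in all 18 samples (12731) were fitted for each of 10 pairs of groups (3 against 3) with edgeR 4.0.16 (R 4.3.3), TMM and the quasi-likelihood test, with Benjamini-Hochberg adjustment over all genes and a threshold of 0.05. The SE is the log2 change divided by the root of F. Deposited RPKM was used only to compare genes and for shares of a pair. The replicates within a group differed by more than counting noise. Same-numbered samples all correlated positively in 1 comparison, tunicamycin 135 min against control, at 0.298, 0.255 and 0.212. In both of these groups replicate 1 had the highest axis score (50.1 and 21.1), and whether the numbers mark paired samples was not tested. The main fit called 0 of the 10 genes there and the block fit 0 of all 12731, so these calls cannot show what the block changed.

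Alternatives were no filter, filterByExpr, DESeq2 1.42.0 (size factors or Wald test), total counts, 1 fit of all 6 groups, the replicate block, a GC-content offset (lowess span 0.3; GC found for 96.6% of 20207 genes), leaving out each replicate and, chosen after seeing the data, leaving out the libraries farthest on the within-group axis. Copies were sought with BLAST+ 2.17.0. The genes and lists were chosen with earlier results of these data known. All 10 genes are named in every comparison. From each list the text names mainly the called genes of largest change (up to 3, no overlap between groups, at least 50 reads on average), while Pgam1, Tpi1, Pdhb, Tigar, Brp44 and Taldo1 at 405 min were added after their values were seen. The fitting step was tested on simulated data. Values of some listed genes are not reported here.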

Additional observations from a re-analysis of the deposited data

Results flagged for a closer look

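The changes of 4 genes differed between 135 and 405 min of tunicamycin by a direct test of those groups, both of which are set against the same control libraries. From 135 to 405 min the log2 difference was -1.25 for Hk1, -0.78 for Hk2, -0.79 for Pfkl and -0.59 for Ldha, in 3 of 3 libraries below all 3 earlier ones for each gene. Of all genes tested, 43.7% were called in this comparison.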

How the results depend on the processing

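With about 1 in 2 genes called in the 405 min comparisons and almost none in several others, the counts depended on the libraries used. Of 1107 values of the 10 genes recomputed under alternatives (70 gene and comparison pairs with a main log2 change of at least 0.25 or a call), 988 kept their direction and side of the threshold, 92 passed it newly, 22 no longer passed and 5 changed sign. The other 30 pairs were smaller, and 18 of them changed sign at least once. In brackets below, "all" gives the genes called by the same fit among the 12731 tested. The number of the 10 genes called at 45 min of HS (0, all 0) became 1 in the fit of all 6 groups (all 1345). It was 7 with the libraries that stand apart left out (all 7888), and leaving out 1 replicate gave 0 to 7 (all 0 to 5786). At 135 min of HS (1, all 941) it became 2 with no filter (1116 of 16417 genes) and 2 with total counts (all 924). It became 3 with DESeq2 (all 2159), in the fit of all 6 groups (all 3243) and with the GC offset (all 2643). With the replicate block it was 0 (all 0), and Ldha then had an adjusted p of 0.143. GC offset and block gave 2 (all 919), and 4 were called without the libraries that stand apart (all 3156). Leaving out 1 replicate gave 0 to 3 (all 11 to 2467). At 45 min of tunicamycin (2, all 786) it became 4 with DESeq2 (all 1843) and 6 without the libraries that stand apart (all 4592). With the replicate block it was 0 (all 21, adjusted p 0.17 for Pfkl and 0.109 for Ldha). It stayed at 2 in the fit of all 6 groups (all 632), where Hk2 (0.0403) passed and Pfkl (0.0911) did not. Leaving out 1 replicate gave 0 to 5 (all 58 to 2499). At 135 min of tunicamycin (0, all 17) it became 1 in the fit of all 6 groups (all 411) and 1 with the GC offset (all 283). It was 6 without the libraries that stand apart (all 5652). At 405 min (3, all 5960) it became 5 with the replicate block (all 5270) and 6 with GC offset and block (all 6696). Leaving out 1 replicate gave 3 to 5 (all 4067 to 7897). For HS against tunicamycin at 45 min (0, all 26) it became 1 with total counts (all 116) and 1 with the GC offset (all 498). It was 2 with DESeq2 (all 1127), 2 in the fit of all 6 groups (all 1270) and 8 without the libraries that stand apart (all 7573). Leaving out 1 replicate gave 0 to 9 (all 0 to 7087). At 135 min (0, all 270) it became 1 with total counts (all 484), DESeq2 (all 1256) or the GC offset (all 1469). The fit of all 6 groups gave 2 (all 1771). For HS 135 against 45 min (0, all 0) it became 1 in the fit of all 6 groups (all 905). It was 2 there without the libraries that stand apart (all 3897). For tunicamycin 135 against 45 min (0, all 37) it became 1 without the libraries that stand apart (all 2009). For tunicamycin 405 against 135 min (4, all 5566) leaving out 1 replicate gave 2 to 5 (all 3547 to 8126). The replicate block (all 3750) took the Ldha adjusted p to 0.0651. Outside tunicamycin 135 min against control, same-numbered samples did not all correlate positively (mean correlation -0.517 to 0.183). The cause of these moves was not tested.

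Sign changes were few. Eno1 in HS 135 against 45 min went from -0.75 to 1.02 without the libraries that stand apart, with -1.43 to 0.61 when 1 replicate was left out. With 1 replicate left out, Eno1 in HS against tunicamycin at 45 min ran from -1.82 to 0.06, Aldoa in HS against tunicamycin at 135 min from -0.50 to 0.03, and Aldoa in tunicamycin 405 against 135 min from -0.50 to 0.05. With total counts, the median log2 change of all genes was -0.33 for HS against tunicamycin at 45 min, where the main fit gave -0.05. For HS against control it was -0.19 at 45 and at 135 min, where the main fits gave -0.03 and -0.02.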
